A study of Mus musculus with 2 samples.

Results

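The RIG-I-like receptor pathway was followed through 9 genes in mouse sarcoma cells: the receptors Ddx58 (RIG-I), Ifih1 (MDA5) and Dhx58 (LGP2), the adaptor Mavs, the ubiquitin ligases Trim25, Rnf135 and Rnf125, and the kinases Tbk1 and Ikbke. They were picked by name as the receptors, adaptor, ligases and kinases of the pathway and were found by gene symbol among the 25509 genes of the count table. Of the 9 genes, 8 had at least 10 counts in a library and were analysed among the 12941 genes that met this minimum. Rnf125 had 0 counts in both libraries.

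The data are 1 poly(A) RNA-seq library of cells carrying a hairpin against the circular RNA circCsnk1g3 (shcircCsnk1g3) and 1 of cells carrying the control hairpin (shCTR, named shSCR in the article). Both came from the same kind of cell: C57BL/6 mesenchymal stem cells lacking p53 (p53-/-) and overexpressing Ccne1, which had grown as subcutaneous tumors in a first set of mice, were then seeded in the lungs of further mice, and were taken back from the sarcoma foci there before they were transduced. The hairpins were delivered by lentivirus with puromycin selection, so that the control also carries the p53 loss, the Ccne1 transgene, the vector and the drug. How many mice the cells came from is not given in the sources used here. With 1 library per group no test between the conditions was possible and no p-value was computed. Each fold change below is that of the TMM-scaled CPM (counts relative to the size of the library after correction for its composition). The exact Clopper-Pearson interval beside it is at the 95% level, covers counting error only and says nothing about how much cultures differ.

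RIG-I-like receptors are helicases of the cytoplasm that bind viral and other unusual double-stranded RNA. RIG-I prefers short RNA with a phosphorylated 5′ end, MDA5 long duplexes, and LGP2, which lacks the signalling domains of the others, modulates both. RIG-I and MDA5 engage MAVS on the mitochondrial surface, the kinases TBK1 and IKKε then phosphorylate IRF3 and IRF7, and type I interferon is made, which in turn induces the receptors themselves.

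Of the 8 genes analysed, 1 was at least 1.5-fold higher in shcircCsnk1g3 than in shCTR (Ddx58), against 5.39% of all genes analysed, and 0 were at least 1.5-fold lower, against 6.31%. All 8 had at least 255 counts summed over both libraries, and among genes with at least 200 summed counts the share at least 1.5-fold higher was 1.99%. None reached 2-fold higher, which 2.13% of all genes did. The interval lay above 0 for 6 of the 8 (Ddx58, Ifih1, Dhx58, Mavs, Trim25 and Rnf135), against 26.9% of all genes, and below 0 for 0, against 28.2%. All 8 log2 fold changes were above 0, as were those of 50.4% of all genes. Their median was 0.34, whereas the median of all genes was 0.00 with quartiles of -0.16 and 0.16. The summed counts of the genes were 10218 in shcircCsnk1g3 and 8912 in shCTR, a log2 ratio of 0.30 (interval 0.26 to 0.35). Without Ddx58 the sums were 8412 and 7812, a log2 ratio of 0.21 (interval 0.17 to 0.26).

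**Figure D1:**
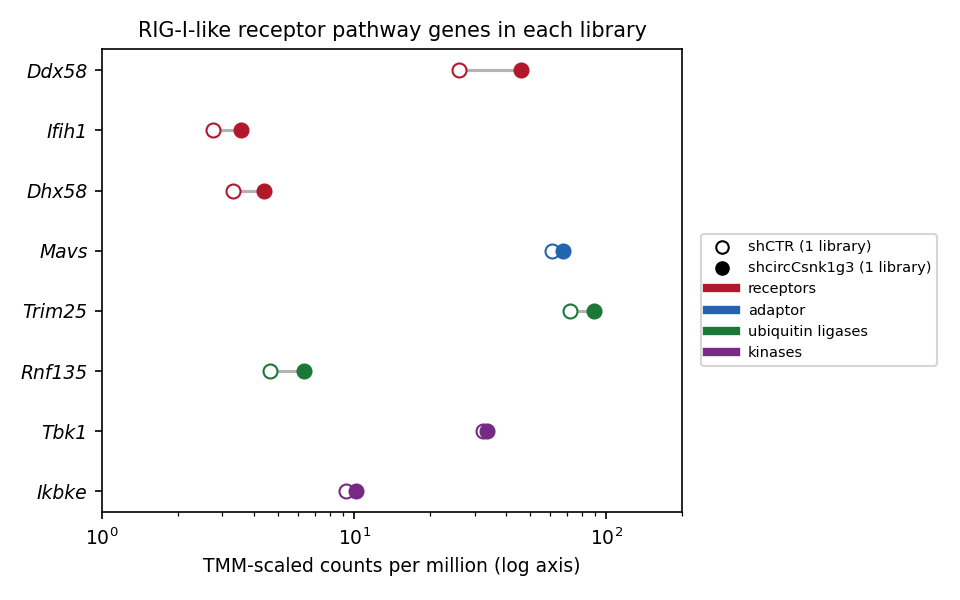
TMM-scaled CPM (log axis) of the 8 genes with counts, open circles for the shCTR library and filled circles for the shcircCsnk1g3 library, colored by role; Rnf125, at 0 in both, is not drawn. The gap was widest for Ddx58, 26.0 against 46.1 CPM, and narrowest for Tbk1, 32.4 against 33.8 CPM.

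Ddx58 encodes RIG-I (ENSMUSG00000040296, GRCm38 chr4:40203773-40239828, minus strand) and was the most abundant of the 3 receptors in both libraries. It had 1806 counts in shcircCsnk1g3 and 1100 in shCTR, or 46.1 and 26.0 CPM. The shcircCsnk1g3 library was 1.77-fold higher, a log2 fold change of 0.82 (interval 0.71 to 0.93), and the whole interval lay above the 1.5-fold line at 0.585. Among all genes analysed, 3.11% had a log2 fold change as high or higher. Among the 4494 genes with a similar summed count, between a 2-fold lower and a 2-fold higher sum, only 18 did, or 0.401%.

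Ifih1 encodes MDA5 (ENSMUSG00000026896, chr2:62595798-62646255, minus strand). Its counts were 139 in shcircCsnk1g3 and 116 in shCTR, or 3.54 and 2.75 CPM. The log2 fold change of 0.36 had an interval whose lower end was only just above 0 (0.0024) and whose upper end was 0.74. Of the 1306 genes with similar counts, 20.6% were as high or higher, a share that does not set Ifih1 apart.

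Dhx58 encodes LGP2 (ENSMUSG00000017830, chr11:100694884-100704271, minus strand) and gave a similar picture. It had 172 counts in shcircCsnk1g3 and 139 in shCTR, or 4.39 and 3.29 CPM. The log2 fold change was 0.41 (interval 0.08 to 0.75), and 16.8% of the 1406 genes with similar counts were as high or higher. An antisense gene, Dhx58os, overlaps 141 bases of its exons (4.3%), and whether strand was used in counting is not stated. The 3 receptors together had 2117 counts in shcircCsnk1g3 and 1355 in shCTR, a log2 ratio of 0.75 (interval 0.65 to 0.85) that rests mostly on Ddx58.

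**Figure D2:**
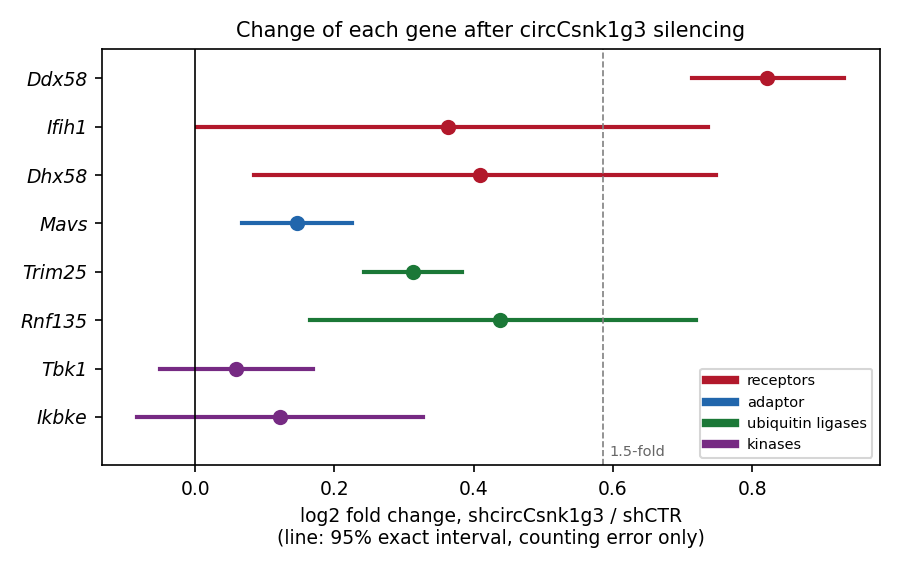
Log2 fold change (shcircCsnk1g3 over shCTR) of the 8 genes, with lines for the 95% exact interval of counting error and a dashed line at 1.5-fold. Only the interval of Ddx58, 0.71 to 0.93, lies wholly past the dashed line, and those of Tbk1 and Ikbke cross 0, that of Tbk1 no longer when the housekeeping genes are centred at 0.

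Mavs encodes the mitochondrial adaptor on which RIG-I and MDA5 converge (ENSMUSG00000037523, chr2:131234063-131248025, plus strand). It had 2634 counts in shcircCsnk1g3 and 2564 in shCTR, or 67.2 and 60.7 CPM. The log2 fold change was 0.15 (interval 0.07 to 0.23). The interval was above 0 at this depth, but 27.0% of all genes, and 19.6% of the 4399 genes with similar counts, were as high or higher.

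The ligases attach ubiquitin to RIG-I: TRIM25 and RNF135 (Riplet) are activating, whereas RNF125 marks RIG-I for degradation. Trim25 (ENSMUSG00000000275, chr11:88999376-89020293, plus strand) had 3499 counts in shcircCsnk1g3 and 3035 in shCTR, or 89.2 and 71.8 CPM. Its log2 fold change was 0.31 (interval 0.24 to 0.38), and 12.8% of all genes, or 4.29% of the 4005 genes with similar counts, were as high or higher. Rnf135 (ENSMUSG00000020707, chr11:80183851-80199757, plus strand) was far scarcer, with 247 counts in shcircCsnk1g3 and 196 in shCTR, or 6.30 and 4.64 CPM. Its log2 fold change was 0.44 (interval 0.16 to 0.72), and 11.8% of the 1624 genes with similar counts were as high or higher. Rnf125 was at 0 in both libraries, which by counting error alone allows up to 3 counts, or 0.0765 CPM in shcircCsnk1g3 and 0.0710 CPM in shCTR. Zcchc3 and Optn, in lists below, were also at exactly 0 in both. Whether such values come from the annotation or from how reads were assigned was not tested. No fold change was computed for it.

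The kinases differed least. TBK1 and IKKε phosphorylate IRF3 and IRF7 once MAVS has signalled. Tbk1 (ENSMUSG00000020115, chr10:121546455-121586787, minus strand) had 1324 counts in shcircCsnk1g3 and 1369 in shCTR, or 33.8 and 32.4 CPM. The log2 fold change was 0.06 (interval -0.05 to 0.17), and 40.1% of all genes were as high or higher. Ikbke (ENSMUSG00000042349, chr1:131254343-131279606, minus strand) had 397 counts in shcircCsnk1g3 and 393 in shCTR, or 10.1 and 9.30 CPM. Its log2 fold change was 0.12 (interval -0.08 to 0.33). The antisense genes Gm28914 and Gm28913 overlap 159 and 65 bases of its exons (1.8% and 0.7%). Both intervals crossed 0, and they leave room for a change of up to 0.17 (Tbk1) and 0.33 (Ikbke) on the log2 scale. With the median of the housekeeping genes set to 0, the interval of Tbk1 lay above 0 (0.01 to 0.23), and that of Ikbke still crossed it (-0.02 to 0.39). That scaling moves every gene up by the same amount, and under it 37.1% of all genes had an interval above 0.

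Most of the added CPM came from a pair of genes. The 8 genes gained 49.6 CPM in all, of which Ddx58 gave 20.0 CPM (40.3%), Trim25 17.4 CPM (35.0%) and Mavs 6.48 CPM (13.1%). The other 5 each gave between 0.799 CPM (Ifih1, 1.61%) and 1.66 CPM (Rnf135, 3.34%). These shares are of reads and depend on exon length, 7050 bases in Ddx58, 5754 in Trim25 and 3345 in Mavs. Per kb of exon, Trim25 gained slightly more than Ddx58 (from 12.48 to 15.51 against from 3.69 to 6.53 CPM per kb).

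Levels were compared between genes per kilobase of exon, from the GENCODE M21 exons of each gene. In shCTR the order was Mavs (18.1 CPM per kb), Trim25 (12.5), Tbk1 (8.29), Ddx58 (3.69), Rnf135 (2.17), Ikbke (1.03), Dhx58 (1.01) and Ifih1 (0.336). In shcircCsnk1g3 it was Mavs (20.1 CPM per kb), Trim25 (15.5), Tbk1 (8.63), Ddx58 (6.53), Rnf135 (2.94), Dhx58 (1.34), Ikbke (1.12) and Ifih1 (0.434). The only neighbours whose exact Poisson intervals overlapped were Dhx58 and Ikbke, in both libraries, and only their order changed. Mavs, Trim25 and Tbk1 were thus more abundant per length than each of the receptors, and MDA5 RNA was the scarcest of the 8. Ddx58 made up 7.83% of the summed level per kb in shCTR and 11.5% in shcircCsnk1g3, whereas Mavs went from 38.5% to 35.5% and Tbk1 from 17.6% to 15.3%.

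Ratios of counts within a library do not depend on how the libraries are scaled. Ddx58 counts per Tbk1 count were 0.804 in shCTR and 1.36 in shcircCsnk1g3, 1.70 times higher (exact interval 1.52 to 1.89), so that the order of their raw counts turned. Per kb of exon the order did not turn: Tbk1 stayed above Ddx58 in shCTR (8.29 against 3.69 CPM per kb) and in shcircCsnk1g3 (8.63 against 6.53). Per Mavs count the Ddx58 ratio was 0.429 in shCTR and 0.686 in shcircCsnk1g3, 1.60 times higher (1.46 to 1.76). Against Ikbke the ratio was 1.63 times higher (1.38 to 1.91), and against Trim25 it was 1.42 times higher (1.30 to 1.56).

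Against the genes of smaller counts the shift of Ddx58 was still above 1. It was 1.37 times against Ifih1 (1.05 to 1.79), 1.33 times against Dhx58 (1.04 to 1.69) and 1.30 times against Rnf135 (1.06 to 1.60). By counting error alone, Ddx58 was therefore higher relative to each of the other 7. Of the pairs without Ddx58 only 2 were compared, and their intervals held 1: Trim25 counts per Rnf135 count were 15.5 in shCTR and 14.2 in shcircCsnk1g3, 0.915 times (0.750 to 1.12), and Tbk1 counts per Ikbke count were 3.48 and 3.34, 0.957 times (0.814 to 1.13). A shift between genes was not particular to Ddx58, since the interval of the log2 fold change of Trim25 (0.24 to 0.38) also lay wholly above those of Mavs (0.07 to 0.23) and Tbk1 (-0.05 to 0.17).

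**Figure D3:**
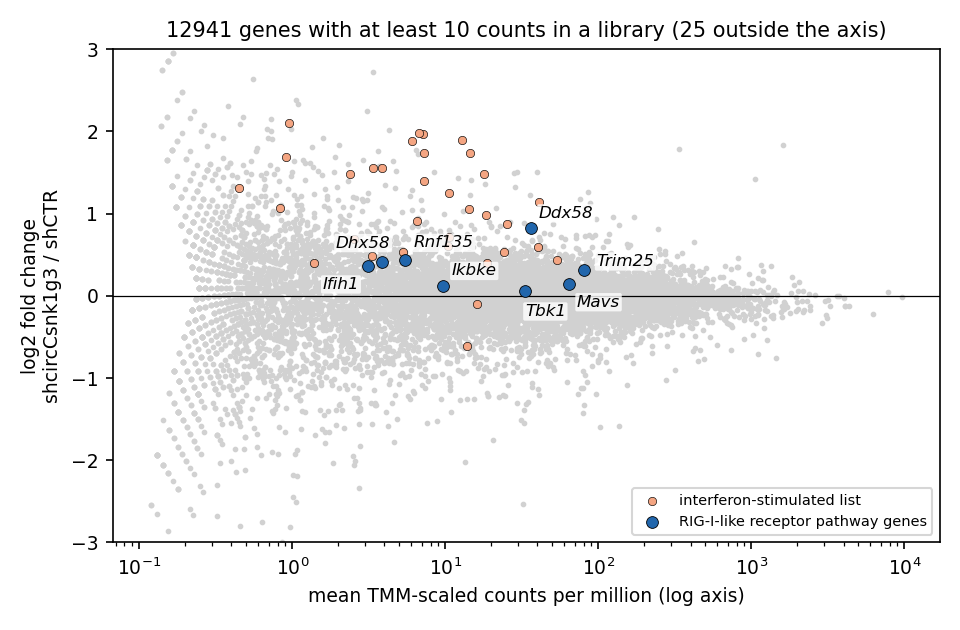
Log2 fold change (shcircCsnk1g3 over shCTR) against mean TMM-scaled CPM (log axis) for the genes analysed, gray, with the 8 pathway genes in blue and the interferon-stimulated list in orange; 25 genes lie outside the axis. Ddx58, at 0.82, stands above the gray cloud at its abundance, whereas Ifih1, Dhx58 and Rnf135, from 0.36 to 0.44, lie within it.

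A list of type I interferon-stimulated genes, which holds none of the 9 genes, was set beside them. It was chosen with earlier results of these data known, so its height is a description only. Of its 33 genes analysed, 25 were at least 1.5-fold higher, against 5.39% of all genes. At least 1.5-fold lower was 1, against 6.31%. The median log2 fold change was 1.07, with a range from -0.61 (Isg20, an exonuclease) to 2.10 (Ifit3b, an antiviral RNA-binding protein). Isg15, the ubiquitin-like modifier, had 1029 counts in shcircCsnk1g3 and 394 in shCTR, and Usp18, the protease that removes it, 376 and 108. Of the 33, 21 had a higher log2 fold change than Ddx58, 28 a higher one than Rnf135, 29 a higher one than Dhx58, and 31 a higher one than each of Ifih1, Mavs, Trim25, Tbk1 and Ikbke. Ddx58, Ifih1 and Dhx58 were each below the median of the list.

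Around the receptors, 11 cofactors were analysed, among them RNA-binding proteins, ubiquitin ligases and 14-3-3 proteins. Of these, 1 was at least 1.5-fold higher and 0 lower, with a median of 0.01. The gene past the threshold was Ddx60, a helicase reported to aid RIG-I, with 115 counts in shcircCsnk1g3 and 37 in shCTR, a log2 fold change of 1.69 (interval 1.20 to 2.32). Mex3c, at -0.20, was the lowest, and Zc3hav1, which encodes the zinc-finger antiviral protein, had 4963 and 4581 counts. Zcchc3, a cofactor of RIG-I, was listed at 0 in both libraries.

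Among 11 partners of MAVS and its signalling complex, 0 were at least 1.5-fold higher or lower and the median was 0.11. Fadd, a death domain adaptor, was the highest, with 798 counts in shcircCsnk1g3 and 686 in shCTR (0.32). Tomm70a, the mitochondrial import receptor that links MAVS to TBK1, was the lowest, with 5526 and 8126 counts, a log2 fold change of -0.45 (interval -0.50 to -0.40). Mavs, at 0.15, was close to that median.

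Of 7 kinase adaptors and IKK subunits analysed, 0 were at least 1.5-fold higher and 1 was at least 1.5-fold lower, with a median of 0.00. The lower gene was Tbkbp1, which encodes the TBK1-binding adaptor SINTBAD, with 184 counts in shcircCsnk1g3 and 336 in shCTR, a log2 fold change of -0.76 (interval -1.03 to -0.50). Sike1, a suppressor of IKKε, was the highest at 0.08, and Optn was listed at 0 in both libraries. The 15 negative regulators had 0 genes past 1.5-fold in each direction and a median of 0.08. Tnfaip3, the deubiquitinase A20, had 721 counts in shcircCsnk1g3 and 554 in shCTR (0.49, interval 0.33 to 0.65), and Smurf2, a ubiquitin ligase, 1552 and 2177 (-0.38).

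Among 8 transcription factors downstream of the pathway, 1 was at least 1.5-fold higher, 0 were lower and the median was 0.14. Irf7, the interferon-inducible factor that amplifies interferon production, had 336 counts in shcircCsnk1g3 and 147 in shCTR, a log2 fold change of 1.29 (interval 1.02 to 1.59). Irf3, its constitutive counterpart, had 1642 and 1687 counts, a log2 fold change of 0.07, and Jun was the lowest at -0.29. Over all 52 pathway genes analysed outside the 9, 2 were at least 1.5-fold higher and 1 lower, with a median of 0.04. Of all genes, 5.39% were at least 1.5-fold higher and 6.31% lower, which also holds beside the counts of each list above. The interval was above 0 for 19 of the 52 and below 0 for 11, against the 26.9% and 28.2% of all genes given above. The genes past 1.5-fold higher were Ddx60 and Irf7.

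**Figure D4:**
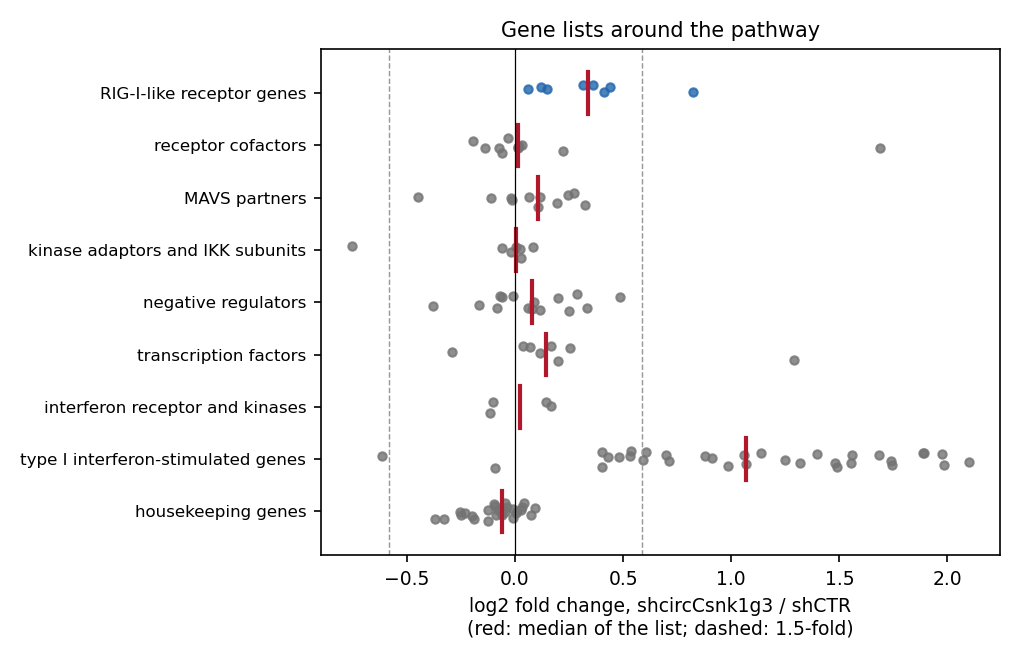
Log2 fold change (shcircCsnk1g3 over shCTR) of every gene analysed in each list, 1 point per gene, with the median of the list in red and dashed lines at 1.5-fold in each direction. The interferon-stimulated genes, median 1.07, lie well to the right of the pathway lists, whose medians run from 0.00 to 0.14, and of the RIG-I-like receptor genes, median 0.34.

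The products of the pathway were hardly read. Of 19 interferon genes, 18 had 0 counts in both libraries, and Ifnb1, which encodes interferon beta, had 1 count in each, so that no fold was given. The 4 genes of the interferon receptor and its kinases had 0 past 1.5-fold in each direction, from -0.12 (Ifnar1) to 0.16 (Tyk2).

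The 5 genes outside the pathway with a log2 fold change nearest to that of Ddx58, among genes with at least 200 summed counts, were Nacc2 (776 counts in shcircCsnk1g3 and 473 in shCTR), Cyb561 (402 and 245), Egr2 (209 and 126), Gpt2 (12338 and 7580) and Cyp4v3 (177 and 106). Their log2 fold changes ran from 0.81 to 0.83. None is on the interferon-stimulated list.

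Because interferon acts on its targets through a short promoter element, the interferon-stimulated response element (ISRE), its core was searched for in RefSeq promoter windows on GRCm38.p6, from 250 bases before to 50 after each start. The core was spelled GAAANNGAAA and searched on both strands, as was a shortened core, GAAANNGAA, chosen after the sequences were seen, which every full core also holds. A window was held for 7 of the 9 genes. The full core was in the windows of 2 of them, Ddx58 and Ifih1, against 3.44% of all 32851 windows, and the shortened core was also in that of Trim25, against 8.56%. In Ddx58 the core ran from base 3 to base 12 of the transcript on the opposite strand, inside an annotated exon, and in Ifih1 from base 33 to base 42 on the gene's own strand, also in an exon. Ifih1 held a further shortened core at bases -112 to -104, on the opposite strand and outside any annotated exon of the gene. In Trim25 the shortened core lay at bases -9 to -1, before the RefSeq start but inside an exon and UTR of the GENCODE annotation, on the opposite strand, and in Isg15, shown for comparison, 3 overlapping full cores lay between bases -78 and -57. The windows of Mavs, Rnf135, Tbk1 and Ikbke held neither form, and the core of the gamma-activated site, TTCNNNGAA, present in 8.30% of all windows, was in none of the 7. Each stretch of 30 bases is written 5′ to 3′ on the gene's strand, with 1 match in capitals (in Isg15 the middle of its 3 overlapping cores), to show the matches nearest to the start in the 3 pathway genes.
Ddx58, chr4:40239804-40239833, minus strand: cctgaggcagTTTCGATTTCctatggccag
Ifih1, chr2:62646206-62646235, minus strand: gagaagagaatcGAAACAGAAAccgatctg
Trim25, chr11:88999384-88999413, plus strand: gcccctcctgTTCAGTTTCgattccttcct
Isg15, chr4:156200871-156200900, minus strand: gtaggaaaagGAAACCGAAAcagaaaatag

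A match of these letters is not a measured binding site, and binding was not tested.

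**Figure D5:**
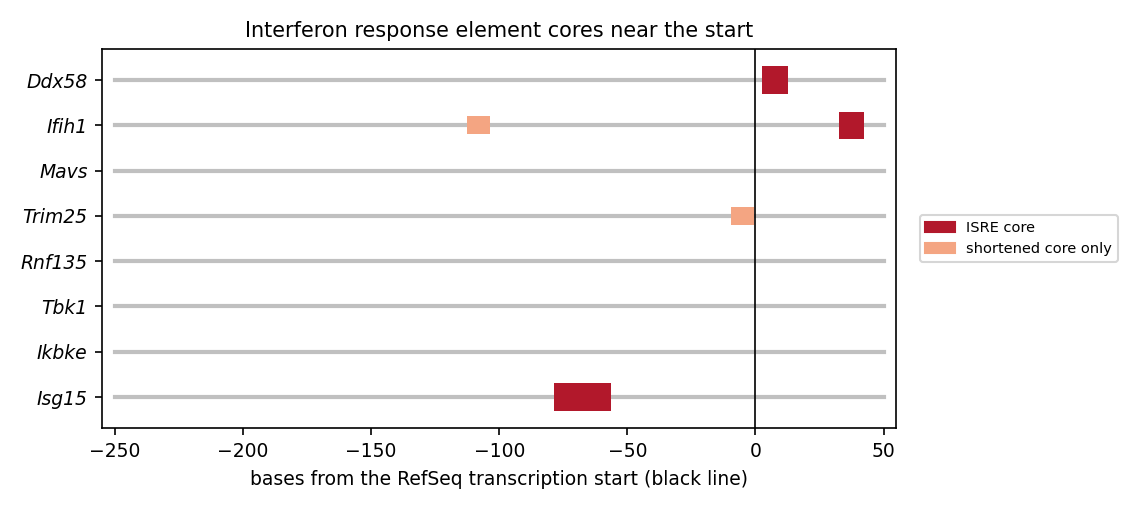
Matches to the ISRE core (red) and to the shortened core alone (orange) in the promoter windows of the 7 genes with a window and of Isg15, by distance in bases from the RefSeq start (black line). Ddx58 and Ifih1 hold a full core just after the start, Trim25 a shortened one just before its RefSeq start, and Isg15 3 overlapping full cores upstream.

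The libraries held 42709996 counts (shCTR) and 38792143 counts (shcircCsnk1g3). At this depth the half-width of the interval of the log2 ratio is 1.42 at 10 counts in each library, 0.41 at 100 and 0.13 at 1000, so that Ddx58, Mavs, Trim25 and Tbk1 are read more firmly than Ifih1, Dhx58 and Rnf135. The circular RNA has no poly(A) tail, so its depletion was not read here; the linear Csnk1g3 mRNA was at 2411 counts in shCTR and 2159 in shcircCsnk1g3, a log2 fold change of -0.05 (interval -0.14 to 0.03). Of the engineered genes, Trp53 had 3841 counts in shcircCsnk1g3 and 4334 in shCTR (-0.07, interval -0.13 to -0.004). Ccne1 had 893 and 963 counts (-0.001, interval -0.13 to 0.13). Counts per gene do not tell whether Trp53 reads come from the altered gene, or Ccne1 reads from the transgene, and this was not tested. Mesenchymal markers were high in both libraries (Vim at 225330 counts in shcircCsnk1g3 and 282350 in shCTR), except that Thy1 had 0 and 1 counts. Their log2 fold changes ran from -0.31 (Pdgfra) to 0.37 (Col3a1), and those of the housekeeping genes from -0.37 (Gusb) to 0.09 (Psmb4). The 14 leukocyte markers summed to 3.14 CPM in shcircCsnk1g3 and 4.76 CPM in shCTR, with 8 at 0 in both and Ptprc at 1 and 0 counts. Most of these leukocyte counts were of Cd68, with 87 in shcircCsnk1g3 and 155 in shCTR (-0.71, interval -1.12 to -0.34), and Cd74 had 33 and 37. The 8 endothelial markers summed to 0.485 and 0.757 CPM, with Cdh5 at 10 and 16 counts. The 11 lung epithelial markers summed to 3.34 and 2.08 CPM, with Epcam at 0 in both, Krt8 at 92 and 46 counts (1.07), Foxj1 at 12 and 7 (0.73, interval -0.58 to 2.47) and Ager at 15 and 16. Their part in the differences above was not tested. Since the RNA is from bulk cells, more RNA per cell and more cells that make it cannot be told apart.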

How the data were processed

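Poly(A) RNA was sequenced from 1 shcircCsnk1g3 and 1 shCTR culture with a stranded kit. According to the methods and labels, the authors aligned reads to GRCm38 with STAR, estimated gene counts with RSEM and used edgeR; the GENCODE release and use of strand in counting are not given in the sources used here. The table the authors deposited holds estimated counts, already whole numbers, for 25509 genes and 92 spike-in rows, all 0 and left out. A TMM-scaled CPM table the authors deposited, with 11624 genes, served as an alternative. RSEM divides reads shared by similar genes.

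TMM factors (1.01 for shcircCsnk1g3 and 0.989 for shCTR) came from edgeR 4.0.16 in R 4.3.3 over the genes that reached 10 counts in either library. The log2 fold change has a prior count of 2, and the threshold is 1.5-fold. A gene with at most 3 counts is at the floor. Intervals and floors cover counting error only, and amplification duplicates were not removed by molecular identifiers. Other steps used python 3.11.15 (scipy 1.17.1, pandas 2.3.3, numpy 2.4.6, figures with matplotlib 3.10.9). The code of the interval was run on simulated counts that held counting error only. Such counts cannot show how well the interval covers differences between real cultures. Gene coordinates and exon lengths are from GENCODE M21 on GRCm38, where 25251 of the 25509 identifiers were found.

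The genes and lists were chosen with earlier results of these data known. Named are the 9 genes, the targeted gene and the engineered genes Trp53 and Ccne1. From each other list the highest, the lowest and any gene past 1.5-fold are named, at most 5 a list, plus the 5 genes nearest to Ddx58. Zc3hav1, Zcchc3, Optn, Irf3, Isg15, Usp18, Ifnb1 and the defining cell markers were added after their values were seen. Alternatives were scaling by total counts or by DESeq2 1.42.0, the deposited CPM table, housekeeping genes centred at 0, prior counts of 0.5 and 10, no count minimum, minimums of 50 and 200 summed counts, and other thresholds. A comparison of the protein sequences was not run.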

Additional observations from a re-analysis of the deposited data

How the results depend on the processing

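The count of pathway genes at least 1.5-fold higher, 1 in the report, was 0 with a 2-fold threshold and 6 when every gene whose interval lay above 0 was counted. The log2 ratio of their summed counts, 0.30, was 0.37 when the median of the housekeeping genes, -0.06 in the report, was set to 0. Under the 9 alternatives of scaling, prior count and count minimum, all 72 values of the single genes kept their direction, and Ddx58 ran from 0.82 to 0.88, Ifih1 from 0.34 to 0.42, Rnf135 from 0.42 to 0.50 and Tbk1 from 0.06 to 0.12. Interval calls numbered 6, and 7 with the housekeeping scaling, which added Tbk1 (0.12, interval 0.01 to 0.23) and raised the share of all genes with an interval above 0 from 26.9% to 37.1%. The share of all genes at least 1.5-fold higher was 1.99% among genes with at least 200 summed counts and 6.92% with no minimum, so that the background of the count above depends on the minimum. Of 87 list medians 83 stayed as in the report within the spread set for them, and none of the pathway lists reached 1.5-fold. No scaling moved the median of all genes by over 0.1.

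No paired analysis was possible because each group had a single library. For the same reason no leave-one-out value exists, and how far cultures differ is not known. Genes under about 100 counts are limited by depth.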

Other observations

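Across the 9587 genes analysed that have a RefSeq promoter window, 348 held the full ISRE core, and 49 of these (14.1%) were at least 1.5-fold higher in shcircCsnk1g3, with a median log2 fold change of 0.04. Of the 9239 without it, 382 (4.13%) were at least 1.5-fold higher, with a median of 0.00. For the core of the gamma-activated site the shares were 4.11% (33 of 803 genes with it) and 4.53% (398 of 8784 without it). On the interferon-stimulated list, 13 of the 25 genes with a window held the full core and 6 the core of the gamma-activated site. These are descriptions of 2 libraries, with no test.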
